A study of Mus musculus with 6 samples.

Results

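The genes described here build and run the primary cilium, and they were read in chondrocytes sorted from embryonic and adult mouse knee cartilage. They are a list of 43 genes for intraflagellar transport (IFT), the BBSome, the ciliary gate and the Evc complex, matched by gene symbol to the rows of the RNA-seq matrix. Of the 43 genes, 42 had a matched row among the 22032 genes of the series. The level of Tctn2 was not analysed here, and this gene enters only the promoter search below. Of the 42, 41 averaged 1 TPM or more and were tested, among 13125 genes tested in all. TPM is a gene's share of all transcripts after correction for gene length, so levels of different genes can be set side by side.

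Bulk RNA-seq covered 6 samples, 3 embryonic and 3 adult. The embryonic samples came from embryos whose stage the labels give as 16.5 weeks and the methods as embryonic day 16.5, with no strain or sex named. The adult samples came from male B6 mice at an age of 2 months, with no transgene or treatment named for either stage. Cells were sorted by a gate that the methods state as CD31-, CD45-, Ter119-, ALP- and BMPR1B+. BMPR1B is a bone morphogenetic protein receptor used to enrich articular chondrocytes, ALP is alkaline phosphatase, and the other 3 markers remove endothelial, white and red blood cells. How many animals went into a sample is not stated, so the p-values below measure the spread between these samples.

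The primary cilium is a single, non-motile projection of the cell membrane built on a centriole. IFT trains carry its parts: the IFT-B complex, moved by a kinesin, travels outward, and the IFT-A complex, moved by a dynein, travels back, while the BBSome carries membrane proteins and the transition zone at the base acts as a gate. In growing cartilage the cilium is best known for Hedgehog signalling, in which the receptor Ptch1 and the transducer Smo act at the cilium and the Gli transcription factors are processed there. Mutations in many of these genes cause skeletal disorders with short ribs, short limbs or extra digits.

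Many ciliary genes carry a site for RFX transcription factors, called an X-box, close to where transcription starts. For the ciliary genes, 2 motifs were searched in RefSeq windows of build GRCm38.p6 that run from 250 bases before to 50 bases after each start. The first was GTTGCC on either strand, called the RFX core motif here. The second was the paired box, made of GTNNCC, a gap of 1 to 3 bases, and GGNNAC, which reads the same on both strands and can overlap the first. Windows were found for 38 of the 43 genes, with none for Ift80, Ift81, Ift122, Dync2li1 and Tmem67. GTTGCC stood in the windows of 18 of the 38 genes (47.4%), against 14.1% of all 27025 genes with a window and 14.8% of the 10292 tested genes with one. The paired box stood in 9 of the 38 (23.7%), against 4% and 5%. The 9 genes held 11 boxes, which are printed here, while the other 29 of the 38 genes held none. Capitals mark the box, lower case the 8 bases on each side, cut short where the window ends, and each is written 5′ to 3′ along the gene's strand.

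Ift57, chr16:49699199-49699228, plus strand: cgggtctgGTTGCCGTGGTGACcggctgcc
Ift57, chr16:49699226-49699254, plus strand: gccctgcgGTTGCCTGGTAACggtgggga
Ift22, chr5:136908079-136908108, plus strand: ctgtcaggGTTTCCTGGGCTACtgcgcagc
Ift22, chr5:136908109-136908138, plus strand: tgttcccgGTCGCCGTGGAAACtgaccagc
Bbs1, chr19:4906605-4906634, minus strand: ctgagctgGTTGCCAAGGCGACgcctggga
Bbs4, chr9:59353464-59353493, minus strand: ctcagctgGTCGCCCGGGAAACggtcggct
Bbs7, chr3:36613489-36613518, minus strand: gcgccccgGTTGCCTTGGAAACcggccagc
Mks1, chr11:87853183-87853212, plus strand: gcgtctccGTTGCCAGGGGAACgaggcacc
Tctn1, chr5:122264411-122264432, minus strand: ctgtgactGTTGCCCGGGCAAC
Tctn2, chr5:124598679-124598708, plus strand: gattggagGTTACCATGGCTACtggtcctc
Tctn3, chr19:40612351-40612379, minus strand: tcccagcgGTTGCCAGGTAACgggaacca

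Boxes of Ift57, Ift22, Bbs7, Mks1, Tctn2 and Tctn3 began 24 to 140 bases before the RefSeq start, and those of Bbs1, Bbs4 and Tctn1 began 2, 24 and 37 bases after it. All 3 tectonic genes, Tctn1, Tctn2 and Tctn3, held a box. A match is a description of letters and not a measured binding site. The bar plot of motif shares sets these shares beside those of all genes.

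**Figure D1:**
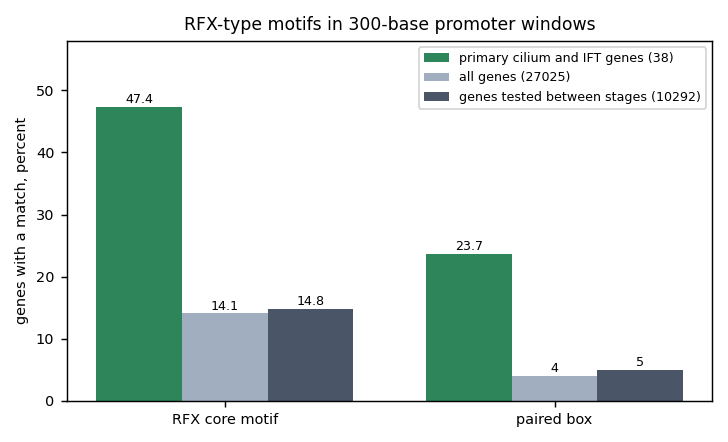
Share of genes, in percent, whose 300-base promoter window held the RFX core motif (left) or the paired box (right), for the primary cilium and IFT genes, all genes with a window and the tested genes with a window, with the number of genes in brackets. The ciliary genes stand at 47.4% and 23.7%, the other bars between 4% and 14.8%.

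The question of the comparison was how transcript levels in articular chondrocytes differ between the embryo and the adult. Among the ciliary genes, most of the changes that passed the test were rises: 11 of the 41 tested genes were higher in adult samples and 2 were lower at an adjusted p under 0.05 (limma, Benjamini-Hochberg over all 13125 genes). The rises included Mkks, Bbs4, Rpgrip1l, Ift122 and Ift80, and the falls were Arl13b and Ift20. Over all genes tested, 45.3% passed, 23.9% as higher and 21.4% as lower in adult. Of the ciliary genes 31.7% passed, 26.8% as higher and 4.88% as lower. A share of rises this near that of all genes is no feature of the list, and the shares were not tested against the background, since the list was chosen with earlier results of these data known.

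The median log2 difference, adult minus embryonic, was 0.29 over the 41 ciliary genes and 0.16 over all genes tested, and 22 of the 41 lay above the median of all genes. Their differences ran from -0.83 (Arl13b) to 2.76 (Mkks). Ranges of the 3 embryonic and 3 adult samples did not overlap in 18 genes (all genes: 56.5%), with adult above in 15 (all genes: 30.7%) and adult below in 3 (all genes: 25.9%). The ciliary genes had a median level of 13 TPM against 22.3 TPM for all tested genes, and a median standard error of 0.38 against 0.31 on the log2 scale. Within the class of 1 to 10 TPM that error was 0.43 for ciliary and 0.52 for all genes. It was 0.31 against 0.29 at 10 to 50 TPM and 0.19 against 0.17 from 50 TPM. Passing the test went with level among all genes: 31.1% passed at 1 to 10 TPM, 47.6% at 10 to 50 TPM and 57.7% from 50 TPM. In the same classes 3 of 17, 7 of 19 and 3 of 5 ciliary genes passed.

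**Figure D2:**
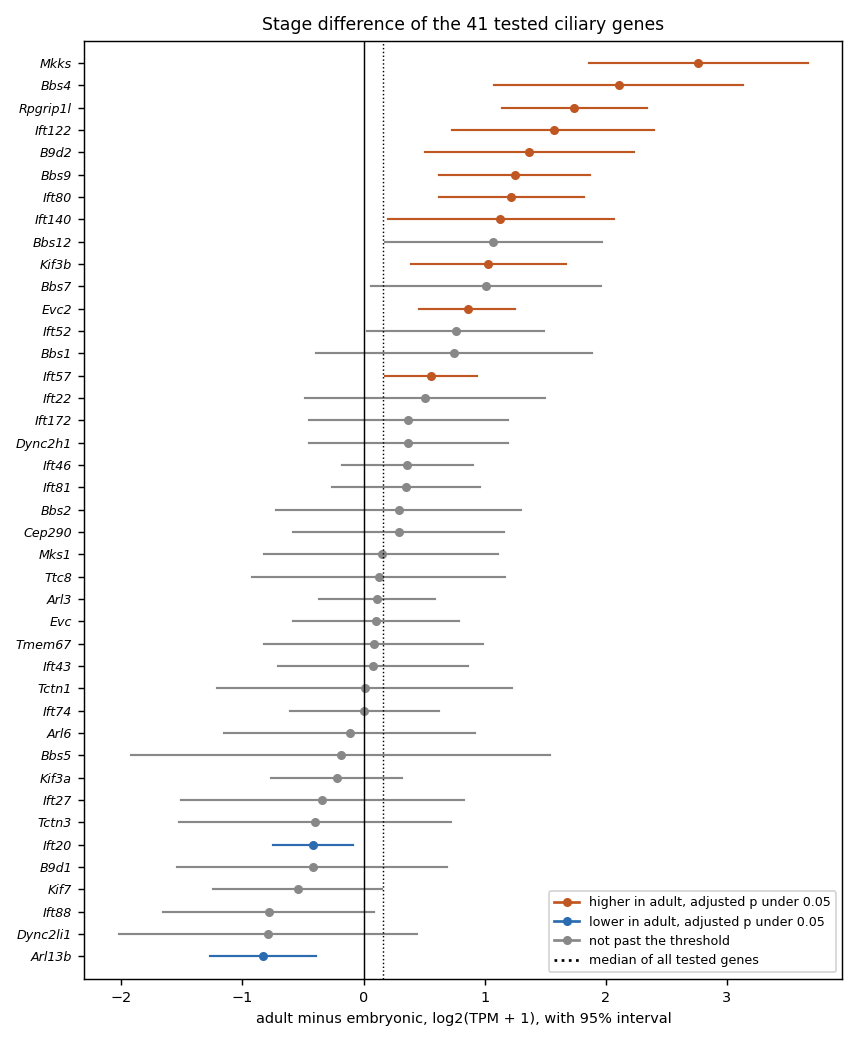
Difference between adult and embryonic means on the log2(TPM + 1) scale for the 41 tested ciliary genes, with points at the limma estimate and bars for the 95% interval. Orange marks the 11 genes higher in adult, blue the 2 lower, grey the 28 that did not pass, and the dotted line the median of all tested genes at 0.16.

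**Figure D3:**
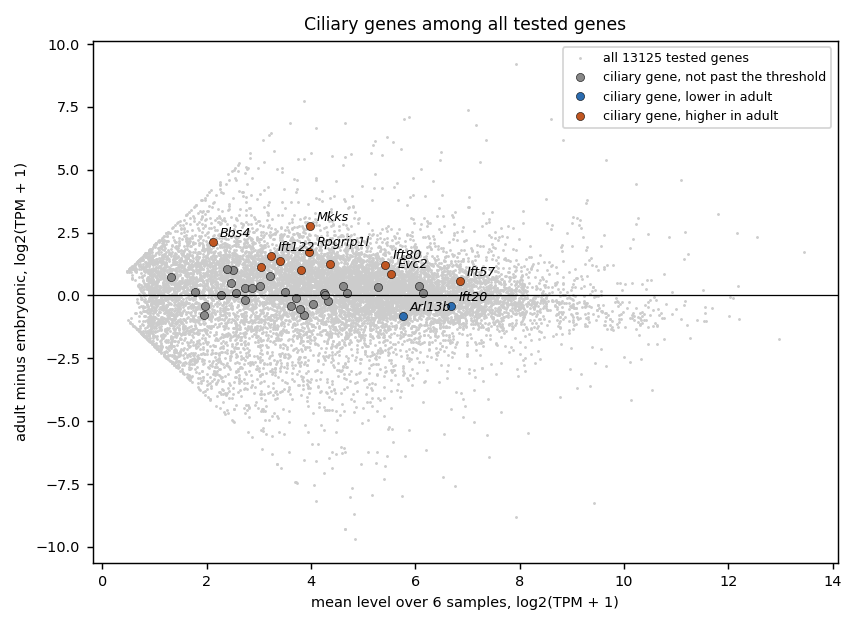
Mean level over 6 samples (horizontal, log2(TPM + 1)) against adult minus embryonic difference (vertical, log2(TPM + 1)) for all 13125 tested genes in light grey, with the 41 ciliary genes as large points. The ciliary genes lie between -0.83 and 2.76, inside a cloud that runs from -9.68 to 9.19.

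Summed over the 42 genes with a row, ciliary transcripts made up 785, 824 and 830 TPM in the embryonic samples and 1041, 1031 and 1027 TPM in the adult samples. The adult sums lay above all embryonic sums, with a ratio of the means of 1.27. The mean sum rose by a net 220 TPM, in which rises and falls of single genes offset each other. The 5 largest rises, of Ift57, Ift80, Mkks, Evc2 and Rpgrip1l, added up to 168 TPM. A lower mean in the adult was found in 9 of the 42 genes. The median ciliary gene stood at 7.35 to 8.91 TPM in the embryonic and 12.9 to 14.8 TPM in the adult samples, while the median of all tested genes stood at 18.4 to 19.4 and 21.5 to 22.8 TPM. Such medians can fall on different genes in each sample. The median log2 difference per gene was 0.29 over the 41 tested ciliary genes, against 0.16 over all genes. In bulk RNA, fewer cells of a type and less RNA per cell cannot be told apart, so these are levels of the sorted population and not counts of ciliated cells.

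Other features of the samples moved with stage in the same libraries. All 11 proliferation genes measured, Mki67 and Top2a among them, were lower in adult, and their summed level was 881 to 934 TPM in embryonic and 68.3 to 162 TPM in adult samples. The 10 chondrocyte markers, none at 0 in any sample, summed to 24551 to 26495 and 14529 to 17891 TPM, with 3 higher (Sox9, Comp and Chad) and 6 lower in adult. Col2a1 alone went from a mean of 14689 to 4706 TPM and Chad from 124 to 5342 TPM. The 6 osteoblast markers summed to 15.7 to 51.8 TPM in embryonic samples, where Bglap and Bglap2 were at 0, and to 254 to 448 TPM in adult samples, with 3 of the 6 higher and 1 lower. Most of the adult sum was Ibsp, with a mean of 11.6 TPM in embryonic and 287 TPM in adult samples. The 6 tendon and fibroblast markers summed to 618 to 811 and 209 to 302 TPM, with 3 lower in adult, and Scx was at 0 in 2 adult samples. The 7 muscle markers summed to 48.3 to 65.1 and 1.79 to 8.83 TPM. Most of the embryonic sum was Des, with a mean of 48.6 TPM in embryonic and 0.925 TPM in adult samples. Of the 4 muscle markers tested, only Des passed, as lower in adult. The 6 leukocyte markers summed to 5.31, 7.47 and 13.7 TPM in embryonic and 68.2, 19 and 36.8 TPM in adult samples, with no overlap: Cd68 was higher in adult (log2 difference 1.73, limma adjusted p = 0.00967), Lyz2 stood at 2.41 without passing (adjusted p = 0.0642), and Ptprc, which encodes CD45, was at 0 in 2 embryonic and 1 adult sample. The 5 endothelial markers summed to 10.9 to 33.3 and 3.79 to 13 TPM and the 5 erythroid markers to 0 to 104 and 1.41 to 36.4 TPM. The part of these cell types and of cell division in the ciliary results was not tested. Adult samples resembled each other less than embryonic ones (Pearson's r across the tested genes 0.907 to 0.935 against 0.951 to 0.955), with adult sample 3 in the lowest pairs. Without adult sample 3, 10 ciliary genes were higher and 2 lower.

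**Figure D4:**
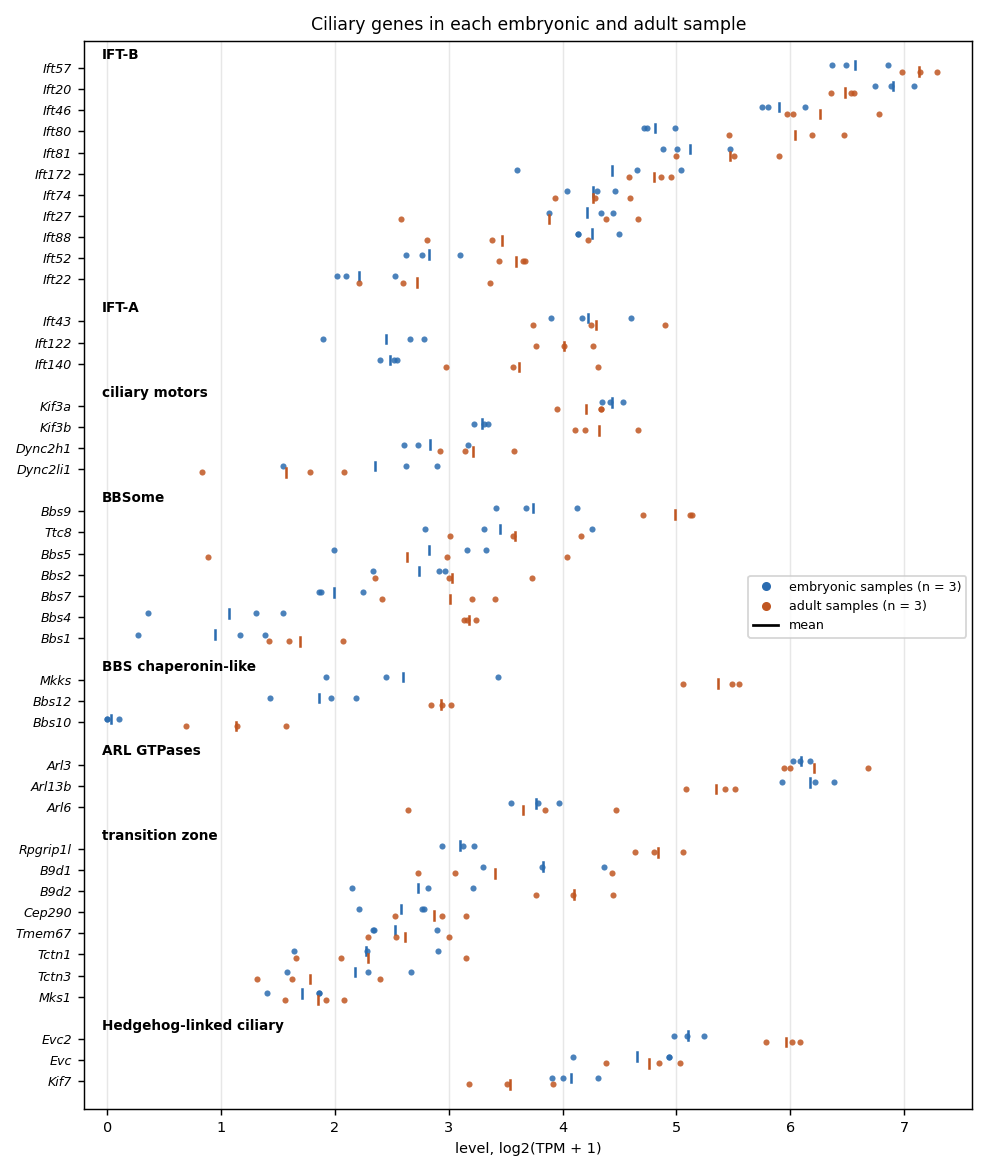
Level of each of the 42 ciliary genes in every sample on the log2(TPM + 1) scale, grouped by complex and ordered by mean level. Blue points are the 3 embryonic samples, orange points the 3 adult samples and vertical ticks the stage means; Mkks, Bbs4, Rpgrip1l, Ift122 and Evc2 show stages that do not overlap, and Ift57 and Ift20 are the highest.

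IFT-B, the outward-moving complex, had 11 genes measured, of which Ift80 and Ift57 were higher and Ift20 was lower in adult. The complex thus had 27.3% called, against 45.3% of all genes tested. Its summed level was 393 to 454 TPM in embryonic and 491 to 519 TPM in adult samples, the largest of the 8 classes. Although the subunits join one complex, their levels ranged widely, from a mean of 3.7 TPM (Ift22) to 119 TPM (Ift20) in the embryo and from 6 TPM (Ift22) to 140 TPM (Ift57) in the adult. Ift57 and Ift20 held the 2 highest means of all ciliary genes, in opposite order at the 2 stages.

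Ift80 (chr3:68892499-69004570, minus strand), whose loss in people causes a dystrophy with a narrow chest, was at 25.3, 30.8 and 25.7 TPM in embryonic samples 1 to 3 and at 43.1, 71.9 and 87.7 TPM in adult samples 1 to 3. All adult samples lay above all embryonic ones, and adult sample 1 was closest to them. The log2 difference was 1.22 (SE 0.26, limma adjusted p = 0.00564), and it passed under all 16 alternatives run, with values from 1.01 to 1.51.

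Ift57 (chr16:49699233-49765126, plus strand), a peripheral IFT-B subunit and the holder of a pair of boxes printed above, was at 81.5, 115 and 88.8 TPM in the embryonic and 125, 155 and 140 TPM in the adult samples. The stages did not overlap, but the gap between the highest embryonic and the lowest adult sample was small. Its log2 difference was 0.56 (SE 0.17, limma adjusted p = 0.024). The call was lost without embryonic sample 1, without embryonic sample 3 or without adult sample 2 (adjusted p = 0.0919, 0.0809 and 0.0718), and also with median-of-ratios scaling (0.0832) and with eBayes without trend (0.0733). An opposite-strand gene, Gm15518, covers 7.86% of its exonic bases, and whether counting used the strand is not stated.

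Ift20 (chr11:78536361-78541737, plus strand), which also sits at the Golgi, went the other way, with 106, 135 and 117 TPM in embryonic and 81.2, 91.6 and 93.3 TPM in adult samples. Every adult sample lay below every embryonic one. The log2 difference was -0.42 (SE 0.15, limma adjusted p = 0.0435), and leaving out any 1 of the 6 samples raised the adjusted p above the threshold (0.0515 to 0.145), as did quantile normalization (0.0807), rescaling without the 20 highest genes (0.1) and eBayes without trend (0.111). The fall of Ift20 is thus a call at the edge of the threshold.

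Ift88 (chr14:57424062-57517936, plus strand), the gene of the classic cilium-loss mouse, was at 21.5, 16.6 and 16.6 TPM in embryonic and at 9.4, 6.01 and 17.7 TPM in adult samples. Adult samples 1 and 2 lay below the embryonic range and adult sample 3 within it. The log2 difference of -0.78 (SE 0.38, limma adjusted p = 0.127) did not pass, and its 95% interval ran from -1.66 to 0.09. Without adult sample 3 it was -1.16 with an adjusted p of 0.0218. The 7 other IFT-B genes, Ift22, Ift27, Ift46, Ift52, Ift74, Ift81 and Ift172, did not pass, with differences from -0.34 (Ift27) to 0.76 (Ift52). Ift52 alone among these 7 had stages that did not overlap, at 5.17 to 7.56 TPM and 9.85 to 11.7 TPM, with an adjusted p of 0.0844 (limma). Ift27 spread from 5 to 24.4 TPM among the adult samples alone.

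IFT-A, the complex of the return journey and of membrane protein entry, had 3 genes on the list. Of these, Ift122 and Ift140 were higher in adult (66.7%, against 23.9% of all genes tested). Their summed level with Ift43 was 24, 24.5 and 33.2 TPM in embryonic and 48.3, 47.1 and 46.4 TPM in adult samples. Ift122 (chr6:115853470-115926699, plus strand), a core IFT-A subunit, rose from 5.87, 2.73 and 5.33 TPM to 12.6, 18.3 and 15.1 TPM. No adult sample came near the embryonic range. Its log2 difference was 1.57 (SE 0.37, limma adjusted p = 0.00822), a ratio of mean TPM of 3.3, and it passed under all 16 alternatives.

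Ift140 (chr17:25016085-25099495, plus strand), another core subunit, whose mutation gives a short-rib ciliopathy, had 4.26, 4.84 and 4.72 TPM in embryonic and 6.89, 10.8 and 18.9 TPM in adult samples. The embryonic values were tight and the adult ones spread widely upward. Its log2 difference of 1.13 (SE 0.41, limma adjusted p = 0.0496) stood at the threshold and was lost in 11 of the 16 alternatives, among them every omission of a sample except that of adult sample 1 (adjusted p 0.096 to 0.137). Ift43, a peripheral subunit, had overlapping stages at 13.9 to 23.2 and 12.4 to 28.8 TPM and a difference of 0.08 (95% interval -0.71 to 0.86).

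Among the 4 ciliary motor genes, the kinesin subunit Kif3b was higher in adult and its partner Kif3a did not pass. Of the 4, 25% were called, against 45.3% of all genes tested. Kif3b (chr2:153291413-153333390, plus strand) was at 8.31, 8.89 and 9.18 TPM in embryonic and 17.3, 24.3 and 16.3 TPM in adult samples. The stages were well apart, and the log2 difference was 1.03 (SE 0.28, limma adjusted p = 0.0168). The call was lost without embryonic sample 1 or adult sample 2 (adjusted p = 0.0527 and 0.0628).

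Kif3a (chr11:53567379-53601967, plus strand), the subunit whose loss in cartilage disturbs the growth plate in mice, was at 20.4, 19.3 and 22.1 TPM in embryonic and 19.2, 14.5 and 19.2 TPM in adult samples. The adult samples lay just below the embryonic ones. The difference of -0.22 (SE 0.24, limma adjusted p = 0.472) had a 95% interval from -0.76 to 0.32. In mean TPM the embryo held more Kif3a than Kif3b, at 20.6 and 8.79 TPM, and in the adult the 2 subunits stood at 17.6 and 19.3 TPM. The retrograde dynein genes Dync2h1 and Dync2li1 did not pass, with differences of 0.37 and -0.79, and Dync2li1 was among the lowest genes at a mean of 4.51 TPM in embryonic and 2.15 TPM in adult samples.

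The BBSome, a protein coat that ferries membrane proteins in and out of the cilium, had 7 subunit genes on the list. Bbs4 and Bbs9 were higher in adult, none was lower, and Bbs1, Bbs2, Bbs5, Bbs7 and Ttc8 did not pass. This put 28.6% of the class as higher, against 23.9% of all genes tested. The class summed to 30.5, 45.6 and 47.8 TPM in embryonic and 89.9, 69.2 and 68.5 TPM in adult samples. Bbs4 (chr9:59321990-59353508, minus strand) was at 1.92, 1.47 and 0.285 TPM in embryonic and at 7.92, 7.79 and 8.46 TPM in adult samples. It was low in the embryo and even across the adult samples. It differed between stages by 2.11 on the log2 scale (SE 0.45, limma adjusted p = 0.00544), and it held in all 15 alternatives in which it could be tested.

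Bbs9 (chr9:22475715-22888280, plus strand), a scaffold of the coat, was the most abundant of these genes at 11.8, 16.5 and 9.67 TPM in embryonic and 34.2, 25.1 and 33.7 TPM in adult samples. The stages did not overlap. Adult minus embryonic was 1.25 on the log2 scale (SE 0.28, limma adjusted p = 0.00623) and passed in all 16 alternatives. Bbs7, with 2.62 to 3.74 TPM and 4.32 to 9.62 TPM, also had adult above embryonic in every sample, but its difference of 1.01 did not pass (limma adjusted p = 0.0771) unless adult sample 2 was left out (0.0434) or the variance was modelled without a trend. Bbs1 was the lowest tested gene of the list, at 0.206 to 1.62 and 1.68 to 3.19 TPM, with a difference of 0.75. Bbs5 was the least even, with 15.4, 6.93 and 0.852 TPM in the adult samples around an embryonic range of 2.99 to 9.01 TPM.

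The chaperonin-like genes Mkks, Bbs10 and Bbs12 encode proteins that help fold and assemble the BBSome. Mkks had the largest rise of the 41 tested genes. At chr2:136873780-136891389 on the minus strand, it was at 4.47, 9.79 and 2.78 TPM in embryonic and 32.3, 43.9 and 45.8 TPM in adult samples. The lowest adult sample lay far above the highest embryonic one. This gave a log2 difference of 2.76 (SE 0.40, limma adjusted p = 0.000717), a ratio of mean TPM of 7.16, and it ranged from 2.42 to 3.18 over 16 alternatives, passing in all. Mkks moved from the twenty-eighth to the eighth place by level among the ciliary genes. A same-strand gene model, AL731706.1, shares 29.3% of its exonic bases, so reads there may belong to either.

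Bbs12 was at 1.69, 3.55 and 2.91 TPM in embryonic and 6.2, 6.66 and 7.1 TPM in adult samples. Its stages were apart, and its log2 difference of 1.07 missed the threshold (limma adjusted p = 0.0519, with 0.0148 to 0.154 over the alternatives). Bbs10 was listed at 0.0738, 0 and 0 TPM in embryonic and 0.613, 1.21 and 1.97 TPM in adult samples, and with a mean under 1 TPM it was not tested. All 3 chaperonin-like genes thus had every adult sample above every embryonic one, as did 30.7% of all tested genes. Of the 2 that were tested, 1 passed, against 45.3% of all genes, and Bbs10 was near 0 TPM in the embryo.

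The ARL GTPases are small switches of ciliary membrane traffic. Arl13b, which sits in the ciliary membrane, activates Arl3 and is mutated in Joubert syndrome, was the larger of the 2 falls. At chr16:62793685-62847040 on the minus strand, it was at 82.4, 60 and 73.2 TPM in embryonic and 33, 44.8 and 42.1 TPM in adult samples. Every adult sample lay below every embryonic one. Its log2 difference was -0.83 (SE 0.19, limma adjusted p = 0.00785), and it passed in all 16 alternatives with values from -0.97 to -0.70. Its place by level went from the third to the ninth.

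Arl3, which releases lipid-tagged cargo inside the cilium, was one of the 3 most abundant ciliary genes. At chr19:46531096-46573198 on the minus strand, it had 67, 71.2 and 64 TPM in embryonic and 102, 60.7 and 62.8 TPM in adult samples. Adult sample 1 lay above and adult samples 2 and 3 just below the embryonic range, and the difference was 0.11 (SE 0.21, limma adjusted p = 0.681, 95% interval -0.37 to 0.59). Arl6, which recruits the BBSome to membranes, had a difference of -0.11 and adult values from 5.25 to 21.2 TPM.

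The transition zone had 8 genes measured of the 9 listed, with Rpgrip1l and B9d2 higher in adult and none lower. The share higher was 25%, against 23.9% of all genes tested. Rpgrip1l (chr8:91217030-91313262, minus strand), a scaffold of the gate, was at 6.68, 7.73 and 8.34 TPM in embryonic and 27, 23.9 and 32.4 TPM in adult samples. Both stages were tight and far apart. It differed between stages by 1.74 on the log2 scale (SE 0.26, limma adjusted p = 0.000956), with a ratio of mean TPM of 3.66 and values from 1.55 to 1.85 over 16 alternatives, all past the threshold.

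B9d2 (chr7:25680780-25686558, plus strand), of the B9 protein trio with B9d1 and Mks1, was at 6.06, 8.28 and 3.44 TPM in embryonic and 16, 20.7 and 12.6 TPM in adult samples. No samples overlapped. Adult minus embryonic was 1.37 on the log2 scale (SE 0.38, limma adjusted p = 0.0173), lost without embryonic sample 3 or adult sample 2 (adjusted p = 0.0567 and 0.0633). Its partners B9d1 and Mks1 did not pass, with differences of -0.42 and 0.15. B9d1 had 2 adult samples at 5.63 and 7.3 TPM and the other at 20.6 TPM. Tctn1, Tctn3, Cep290 and Tmem67, the remaining gate genes, had overlapping stages, means between 2.61 and 6.45 TPM and differences from -0.40 (Tctn3) to 0.29 (Cep290). In Tctn1 the opposite-strand gene Hvcn1 covers 19% of exonic bases.

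Evc and Evc2 encode the partners of a complex near the ciliary base that passes the Hedgehog signal from Smo, and mutation of either causes Ellis-van Creveld syndrome, with short limbs and extra digits. The genes lie head to head on chromosome 5, Evc at chr5:37289098-37336894 on the minus strand and Evc2 at chr5:37338499-37425055 on the plus strand. Evc2 was at 33.1, 36.9 and 30.5 TPM in embryonic and 63.6, 67 and 54.3 TPM in adult samples. The stages were tight and apart, with a log2 difference of 0.86 (SE 0.17, limma adjusted p = 0.00413) that passed in all 16 alternatives.

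Evc was at 29.5, 16 and 29.5 TPM in embryonic and 31.8, 19.9 and 27.8 TPM in adult samples. Its stages overlapped, and its difference of 0.10 (SE 0.30, limma adjusted p = 0.797) had a 95% interval from -0.58 to 0.79. That interval overlaps the one of Evc2 (0.46 to 1.25), and the difference between the 2 genes was not tested.

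Kif7 (chr7:79698098-79715720, minus strand), the ciliary-tip kinesin that holds Gli proteins in check, was at 14, 15 and 18.9 TPM in embryonic and 10.4, 14.1 and 8.05 TPM in adult samples. One adult sample reached the embryonic range. The difference of -0.54 (SE 0.31, limma adjusted p = 0.178) did not pass. The opposite-strand gene 9330171B17Rik covers 19.1% of its exonic bases.

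Within a stage, the median SD of a ciliary gene between samples on the log2 scale was 0.30 in the embryo and 0.34 in the adult, against 0.26 and 0.35 for all genes tested. An SD over 0.5 was seen in 11 of the 41 genes in the embryo (26.8%, all genes: 23.2%) and 15 in the adult (36.6%, all genes: 33.9%). The highest sample was not the same for most genes: among the adult samples, sample 1 was the highest in 11 genes, sample 2 in 14 and sample 3 in 16. Over all 13125 genes tested, adult samples 1, 2 and 3 were the highest in 4147, 4097 and 4881 genes.

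Calls were counted for genes with and without the promoter motifs. Of the 17 tested genes with GTTGCC, 3 were higher and 1 was lower in adult, with a median difference of 0.10, and of the 19 without it 6 were higher and 1 lower, with a median of 0.36. Of the 8 tested genes with a paired box, Ift57 and Bbs4 were higher, and of the 28 without one 7 were higher and 2 lower, with medians of 0.54 and 0.21. Over all genes tested, 23.9% were higher and 21.4% lower. The splits by motif hold few genes and were not tested. Among the RFX factors themselves, Rfx2 was at 4.85, 3.28 and 11.4 TPM in embryonic and 3.7, 3.46 and 8.76 TPM in adult samples (log2 difference -0.20, limma adjusted p = 0.772). Rfx3 was at 4.94, 10.7 and 20.8 TPM and 17, 15.9 and 22.7 TPM (0.75, adjusted p = 0.209). None of the 5 tested genes of the RFX and FOXJ1 list passed by limma, and 0 of the 5 had an unadjusted p under 0.05.

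Other genes of the same machinery were read from lists of 102 genes in all, of which 84 were tested. In this union 16 were higher and 10 lower in adult (31%), again against 45.3% of all genes. The remaining IFT, motor and BBSome genes had 3 of 17 higher and none lower (17.6% called). The largest difference was that of Ttc30b, an IFT-B subunit, at 2.09 on the log2 scale (limma adjusted p = 0.00731). Its levels were 0, 1.17 and 1.06 TPM in embryonic and 7.01, 4.85 and 6.41 TPM in adult samples. With an embryonic mean of 0.741 TPM, it met the 1 TPM filter only through the adult samples. Ttc30a1 and Ttc30a2 averaged under 1 TPM and were not tested, and sharing of reads among these genes was not checked. Also higher were Ttc21b, an IFT-A subunit, and Tulp3, the adaptor that brings receptors into the cilium. Their differences were 1.45 and 1.09 (limma adjusted p = 0.0247 and 0.00555). The IFT-A genes Wdr19 and Wdr35 did not pass, at 0.87 and -0.15.

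Further transition zone and inversin genes had 3 of 14 higher and 1 lower (28.6% called, against 45.3% of all genes). Cc2d2a, a gate protein, and Invs, of the inversin compartment, rose by 1.88 and 1.57 on the log2 scale (limma adjusted p = 0.00146 and 0.00324), and Tmem237 by 0.76 (0.0279). Tmem107, a gate membrane protein, fell by 1.55 (adjusted p = 0.0097). Basal body and distal appendage genes also had 3 of 15 higher, Cep19 (1.73), Cep97 (1.28) and Fbf1 (0.78). In this list 1 was lower, the appendage gene Sclt1 (-1.06), and 26.7% were called. Of the 13 membrane cargo and trafficking genes 5 were higher and none lower (38.5% called, against 45.3% of all genes, of which 23.9% were higher). The largest differences among the 5 were in Pde6d, the carrier that Arl3 unloads (1.33), Pkd2, a ciliary channel (0.96), and Adcy3, an adenylyl cyclase (0.67). Of the genes just named, Ttc21b, Tmem237, Cep97, Sclt1 and Adcy3 lost their call in at least 1 omission of a sample.

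Of the 10 tested Hedgehog pathway genes, 2 were higher and 5 lower in adult (70%, against 45.3% of all genes). Gli1, the transcription factor that is itself a target of the pathway, was at 23.4, 21.2 and 26.9 TPM in embryonic and 1.7, 1.28 and 2.18 TPM in adult samples. Every adult sample was far below every embryonic one, and the log2 difference was -3.20 (SE 0.34, limma adjusted p = 0.000131). Ptch1, the receptor and another target gene, fell from 42.4, 44.2 and 52.3 TPM to 24.1, 20.1 and 16.7 TPM (-1.16, SE 0.21, adjusted p = 0.00257). Boc, a co-receptor, and Gli3, mainly a repressor, fell by 1.76 and 1.42 (adjusted p = 0.000179 and 0.000173).

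Smo, the transducer that enters the cilium, had overlapping stages at 119, 112 and 128 TPM in embryonic and 112, 88.9 and 111 TPM in adult samples (log2 difference -0.21, SE 0.15, limma adjusted p = 0.275). Rising genes of the pathway were the co-receptors Gas1, from 78.8, 108 and 74 TPM to 333, 503 and 477 TPM (2.32, adjusted p = 4.64e-05), and Cdon (0.74, adjusted p = 0.00255). Set side by side, the Hedgehog target genes Gli1 and Ptch1 were lower in the adult while the ciliary genes linked to the pathway stood at 0.86 (Evc2), 0.10 (Evc) and -0.54 (Kif7). The 10 Hedgehog genes had a median difference of -0.64, and the difference between the lists was not tested.

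**Figure D5:**
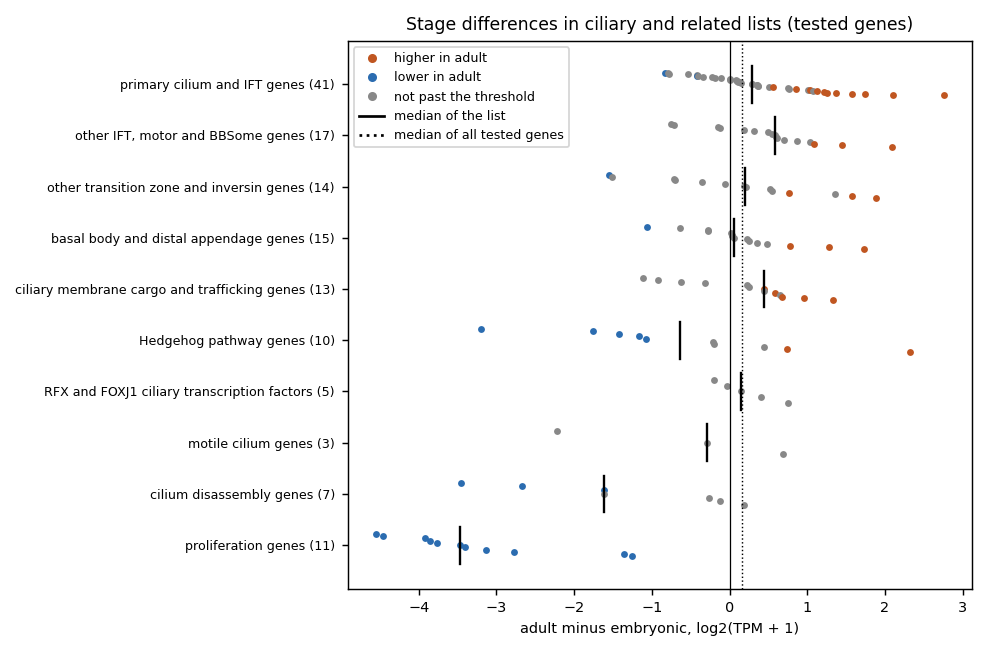
Adult minus embryonic difference on the log2(TPM + 1) scale for each tested gene of the primary cilium and IFT list, 8 other ciliary pathway lists and the proliferation genes, with the number tested in brackets. Orange and blue points passed the test as higher or lower in adult, grey points did not, black ticks are list medians (0.29 for the cilium and IFT genes, -0.64 for Hedgehog genes, -3.47 for proliferation genes) and the dotted line is the median of all tested genes.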

How the data were processed

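The authors sorted the cells, made cDNA with a Nugen Ovation V2 kit per the methods (the labels name a Kapa mRNA-Seq kit), sequenced single-end reads of 50 bases, mapped them to GRCm38 and estimated levels with RSEM, whose version is not given in the sources used here. The values the authors deposited are log2(TPM + 1) per gene. A TPM value does not carry the read depth behind it. The paper states that read totals are given in its supplement, and they were not used here. Precision therefore rests on the 3 samples of a stage. Random and poly(T) priming and cDNA amplification can distort low values, and the added 1 shrinks the log2 difference of genes near 1 TPM.

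Ensembl identifiers were matched to symbols with GENCODE M21 of the same build. Genes averaging 1 TPM or more were fitted with limma 3.58.1 in R 4.3.3 (lmFit, eBayes with trend, two-sided, stage as the only term, pseudocount 1 as deposited), with Benjamini-Hochberg adjustment over all 13125 genes and a threshold of 0.05. EBSeq, named in the methods, was not used here. The fit was tested on simulated data. Copies of the ciliary genes at 95% identity were searched with BLAST+ 2.17.0. Promoter windows came from RefSeq, and Python 3.11.15 with pandas 2.3.3, numpy 2.4.6 and matplotlib 3.10.9 made tables and figures. A difference is adult minus embryonic.

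The members and lists were chosen with earlier results of these data known. Given in full were members past the threshold with a log2 difference of at least 1 in size, Ift80, Ift88, Kif3a, Kif7, Evc and Evc2, and the 3 highest by mean level. Of other lists up to 3 genes a direction were named, with Gli1, Ptch1, Smo, Rfx2 and Rfx3. Other genes named were chosen after their values were seen. The fit was repeated with a pseudocount of 0.1, with a filter at 5 TPM and unfiltered, with 3 scalings (quantile, median-of-ratios, and one that drops the 20 highest genes), with robust and trend-free eBayes, with replicate numbers as a block, with a threshold of 0.01, and leaving out each sample.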

Additional observations from a re-analysis of the deposited data

How the results depend on the processing

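Of the 13 calls among ciliary genes, 8 held in every alternative in which they could be tested: Ift80, Ift122, Bbs4, Bbs9, Mkks, Rpgrip1l and Evc2 as higher and Arl13b as lower. Bbs4 could not be tested at a mean of at least 5 TPM, since its mean is lower. Of the 28 genes not called, 24 stayed so throughout, and Ift52, Ift88, Bbs7 and Bbs12 were called in at least 1 alternative. No called gene changed direction. The 11 genes higher in adult became 7 at an adjusted p under 0.01 and 8 to 11 with 1 sample left out. The 2 lower became 1 with quantile normalization, without the 20 highest genes, with eBayes without trend and at an adjusted p under 0.01, and 1 to 2 with 1 sample left out. The 16 other pathway genes higher in adult became 10 at an adjusted p under 0.01 and 12 to 14 with 1 sample left out, where the 10 lower became 9 to 13. The median difference of 0.29 became 0.12 with quantile normalization and 0.16 with median-of-ratios scaling. The median of all genes was 0.09 and 0.02 under these scalings, against 0.16 in the main fit. With 1 sample left out the ciliary median was 0.24 to 0.46, and it was 0.46 without adult sample 3.

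With the replicate number as a block, 10 ciliary genes were higher and 1 was lower. Samples with the same number did not deviate together (correlations of -0.00884, -0.0169 and -0.0223). No pairing by number was thus seen, though 3 samples a stage cannot exclude one.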

Other observations

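Genes of motile cilia, which the primary cilium lacks, were low in these samples. Of the 14 listed, 10 to 11 were at 0 in each adult sample and 5 in each embryonic one, and the 3 that could be tested did not pass (limma, adjusted p under 0.05), with 1 of them at an unadjusted p under 0.05. The counts at 0 include Pifo, which was at 0 in every sample and also stands on the list of cilium disassembly genes. Ccdc40, an assembly factor of ciliary dynein arms, was at 14.7, 27.1 and 2.78 TPM in embryonic and 2.1, 4.35 and 0 TPM in adult samples. Tekt2, a microtubule protein of sperm tails and motile cilia, reached 39.4 TPM in embryonic sample 3 and 22.9 TPM in adult sample 2, with 3.15, 4.64, 12.2 and 0.642 TPM in the others. Foxj1, the transcription factor of motile cilia, was at 1.28, 0.792 and 2.32 TPM in embryonic samples and listed at 0 in all 3 adult samples.

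Genes that take the cilium apart before cell division had 3 of 7 lower and none higher in adult, 42.9% called against 45.3% of all genes, of which 21.4% were lower. Nek2 was at 16, 19.3 and 19.1 TPM in embryonic and 0, 4.26 and 0 TPM in adult samples, Plk1 at 10.7, 12.9 and 13.7 TPM and 1.89, 0 and 2.2 TPM, and Nedd9, a scaffold that activates Aurka, at 77.4, 75.5 and 81.3 TPM and 25.1, 33.4 and 17.9 TPM (log2 differences -3.46, -2.67 and -1.62, limma adjusted p = 0.0028, 0.00327 and 0.000662). Aurka spread from 0.549 to 19 TPM among the adult samples, highest in sample 3, which also held the highest summed level of proliferation genes among the adults at 162 TPM. Nek2, Plk1 and Aurka are cell cycle genes as well, and their change was not separated from that of the 11 proliferation genes, all lower in adult.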
